A study of Caenorhabditis elegans with 2 samples.

Results

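Chromatin immunoprecipitation followed by sequencing (ChIP-seq) signal of eGFP-tagged CEH-28 was described at 7 of 19973 annotated protein-coding genes of Caenorhabditis elegans. They were the chaperone genes hsp-1, hsp-110, hsp-3, hsp-4, hsp-6 and hsp-60 and the gene of the heat shock transcription factor, hsf-1. The genes were chosen from measured values, since peaks at several of them were already known in these data, so their signals and ranks are given as a description with no test. No RNA was measured, and whether the genes were expressed in these larvae was not examined.

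The larvae were of strain OP241, which carries the wgIs241 insertion with tagged ceh-28 in an unc-119(ed3) background. Whole animals of both sexes were pooled at the last larval stage (L4), with no treatment named. The series held 1 group of 2 replicates, recorded as separate biosamples, and the deposited notes on file lineage name 1 control for both. CEH-28 is an NK-2 class homeodomain protein known from the M4 neuron of the pharynx, and signal from that cell was not separated from the rest of the animal. The labels name the antibody as ceh-28, and whether it was raised against the tag is not given. No untagged strain was analysed here, so how much of the signal at any gene would appear without the tag cannot be told apart from signal of the factor.

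Chaperones bind unfolded proteins and help them to fold. The HSP70 proteins do so through cycles of ATP binding and hydrolysis, and each compartment of the cell has its own form. HSP-1 works in the cytosol and nucleus with its nucleotide exchange factor HSP-110, HSP-3 and HSP-4 are the BiP proteins of the endoplasmic reticulum, and HSP-6 works in the mitochondrial matrix beside the chaperonin HSP-60. HSF-1 is the transcription factor of the heat shock response and is also needed for larval development. In worms hsp-4 and hsp-6 are widely used as reporters of the unfolded protein responses of the endoplasmic reticulum and the mitochondria.

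The DNA under the highest upstream summits is printed here because it shows which short motifs lay where the signal was highest at 4 of the genes. A summit is the position of highest signal in a called region, and up to 100 bp on either side are given, stopping short of any annotated untranslated region. Sequences are from the RefSeq genome of WBcel235, the same assembly as ce11, and run 5′ to 3′ on the strand of the named gene. Capitals mark an NK-2 site (TCAAGTG or TTAAGTG, here read on the other strand) at hsp-1, heat shock elements at hsp-110 and hsp-60, and the TGACGTG core of an unfolded protein response element at hsp-3. The regions are chrIV:17278391-17278591 on the plus strand, chrIII:8447064-8447264 on the minus strand, chrX:6092125-6092302 on the minus strand and chrIII:1619010-1619210 on the plus strand.
hsp-1: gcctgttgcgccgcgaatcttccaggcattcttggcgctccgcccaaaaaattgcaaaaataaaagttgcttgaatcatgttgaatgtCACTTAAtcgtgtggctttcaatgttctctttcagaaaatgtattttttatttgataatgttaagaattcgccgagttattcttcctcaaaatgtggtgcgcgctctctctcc
hsp-110: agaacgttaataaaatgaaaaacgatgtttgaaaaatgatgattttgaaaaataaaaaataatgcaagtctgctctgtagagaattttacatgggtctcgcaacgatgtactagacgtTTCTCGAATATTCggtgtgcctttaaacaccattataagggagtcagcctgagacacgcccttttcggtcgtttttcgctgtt
hsp-3: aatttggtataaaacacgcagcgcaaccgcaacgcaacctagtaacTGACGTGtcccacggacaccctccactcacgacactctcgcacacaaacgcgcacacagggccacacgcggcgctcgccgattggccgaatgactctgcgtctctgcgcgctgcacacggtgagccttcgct
hsp-60: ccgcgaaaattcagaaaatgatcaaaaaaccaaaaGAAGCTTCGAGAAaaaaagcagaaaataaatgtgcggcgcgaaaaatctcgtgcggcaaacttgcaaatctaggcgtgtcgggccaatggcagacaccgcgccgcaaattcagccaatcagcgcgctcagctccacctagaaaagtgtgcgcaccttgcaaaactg

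Peaks were sought from 2000 bp upstream of each gene start to the gene end, in 4 deposited lists on ce11. The thresholded list held the 1739 summits that passed the irreproducible discovery rate (IDR). The pooled list, made from both replicates together with a relaxed threshold, held 20803 summits, and the lists of replicate 1 and replicate 2 held 23410 and 26414. The pooled list was deposited as peaks and background for input to the IDR, so a pooled summit that did not pass can be background. Every list gives each region a signal value of the authors, with no stated scale, which is used here to rank summits within a list. The thresholded summits were the 1739 pooled summits with the highest signal, from 56.5 upwards with a median of 89.8. Of them, 1733 had an overlapping region in both replicates. Within the highest 1739 of a replicate stood 92.4% of them in replicate 1 and 78.2% in replicate 2. The number of reads behind the lists is unknown, so no value carries a depth-based error.

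Of the 7 genes, hsp-1, hsp-3, hsp-60 and hsf-1 had a thresholded summit, which is 4 of 7, while 7.56% of all protein-coding genes had one. This contrast was used to choose the genes, and nothing is read from it. In the promoter window, from 1000 bp upstream to 500 bp downstream of the start, hsp-1, hsp-3 and hsp-60 had a thresholded summit, against 3.85% of genes. All 7 genes had a pooled summit, against 56.0% of genes. The highest 1739 summits of replicate 1 included 1 at the same 4 genes, against 7.48% of genes, and those of replicate 2 included 1 at hsp-1 only, also against 7.48% of genes. The window lengths differed, since the median was 5000 bp for the 7 genes and 4027 bp for all genes, and only 5.44% of genes had a window as long as the 11579 bp of hsf-1.

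**Figure D1:**
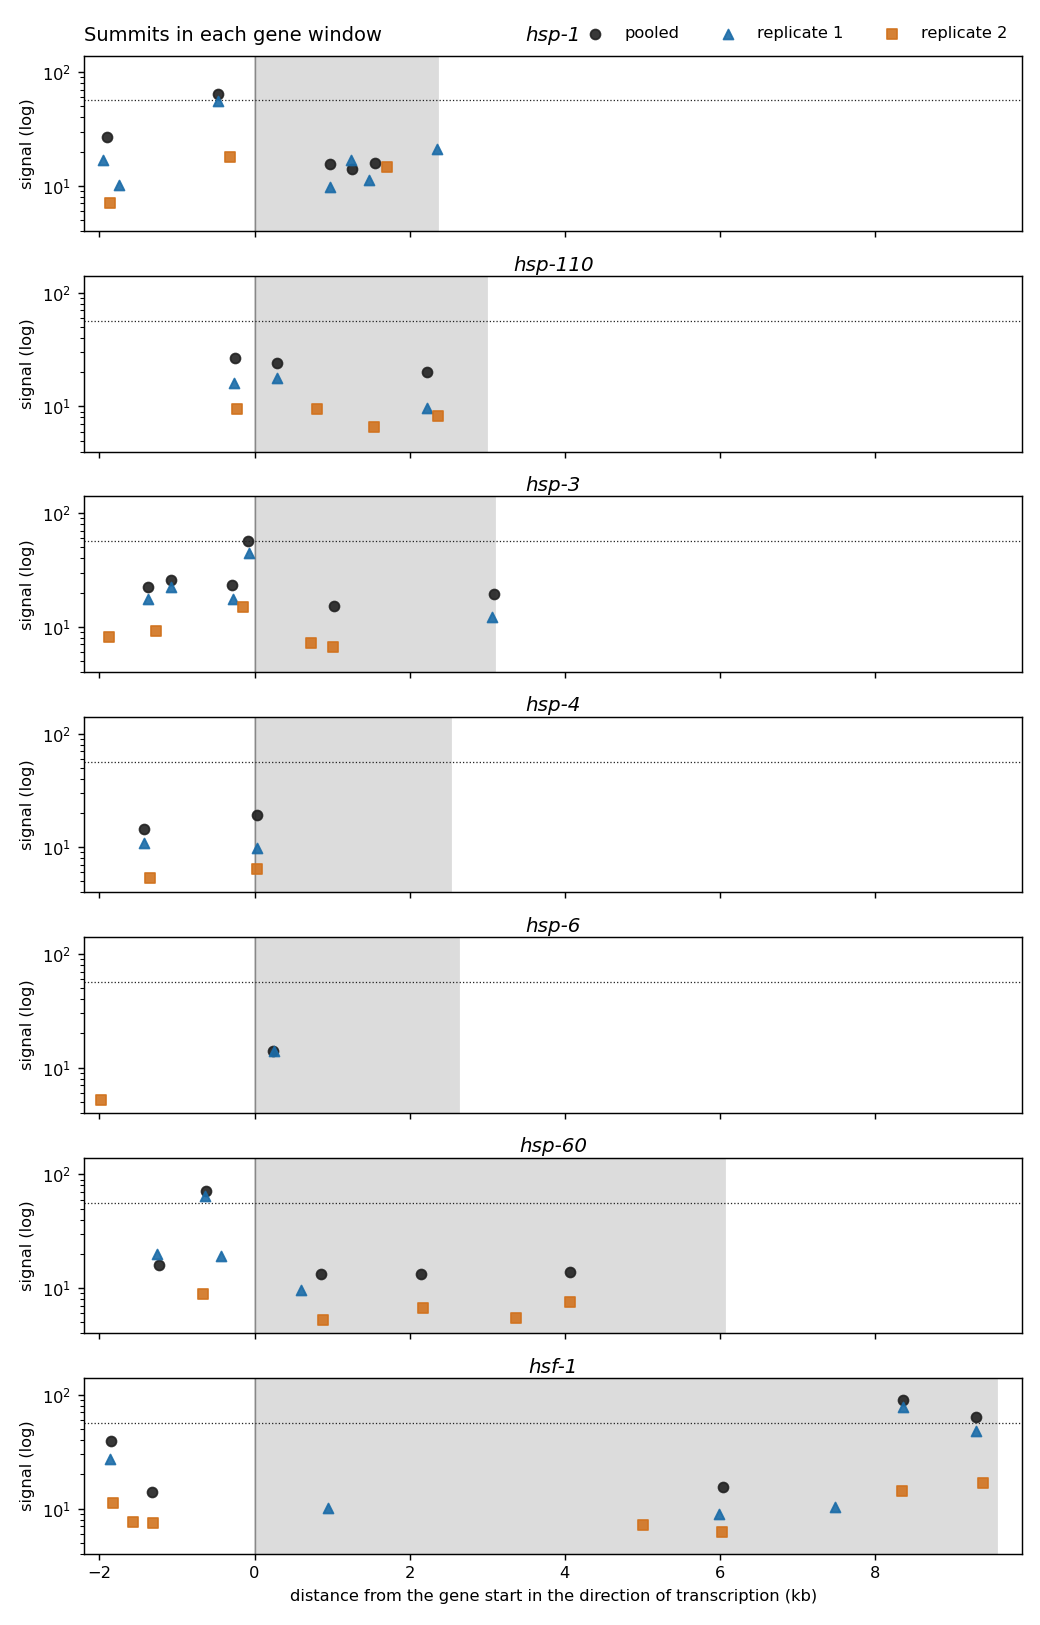
Signal (log axis) of every pooled, replicate 1 and replicate 2 summit from 2000 bp upstream of the start to the end of each gene, against distance from the start in kb; the grey block is the gene and the dotted line the lowest thresholded signal, 56.5. The highest summits of hsp-1, hsp-3 and hsp-60 lay upstream of the start, and those of hsf-1 lay near the end of the gene.

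The 7 windows held 27 pooled summits, of which 5 were thresholded, and 28 and 27 summits of replicates 1 and 2. Per kb, that was 0.624 pooled summits, against 0.207 over the 6 chromosomes, and 0.116 thresholded summits against 0.0173. The genes were chosen by their peaks, and whole chromosomes include DNA outside gene windows, so nothing is read from this contrast either. The 27 summits were spread over the gene bodies as well as the upstream DNA. Those that did not pass the threshold can be background, with a −log10 q as low as 0.0422 in an intron of hsp-60. Of them 10 lay in coding exons, 7 between genes, 6 in introns, 2 in 3′ UTRs, 1 in a 5′ UTR and 1 in an exon of a non-coding RNA.

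The cytosolic HSP70 gene hsp-1 (WBGene00002005, chromosome IV, 17278959 to 17281330, plus strand) had 1 high pooled summit upstream. A row of low pooled summits lay in its coding exons. The thresholded summit at 17278491 lay 468 bp upstream of the start, within the annotated non-coding RNA F26D10.23. Its pooled signal was 64.5 (rank 1412), with signals of 56.1 in replicate 1 (rank 1129) and 17.8 in replicate 2 (rank 1695). Both replicates thus had it among their highest 1739 summits, which held for no other of the 5 thresholded summits. The replicate summits lay 162 bp apart, where the 90th percentile over thresholded summits was 132.8 bp, so the position was less sharply placed than the rank. Downstream of the start, pooled signals of 15.5, 14.2 and 15.96 stood 969, 1252 and 1556 bp into the gene. Their −log10 q values were low, at 0.164, 0.0871 and 0.193. Replicate 2 placed a coding exon summit higher, at 1709 bp, with a signal of 14.7 (rank 2437) and a −log10 q of 2.12. A pooled summit of 24.8 lay 33 bp past the gene end. A further summit of 27.1 stood 1901 bp upstream, but it lay in an intron of the C-type lectin gene clec-196 and only 102 bp from that gene's start.

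The nucleotide exchange factor gene hsp-110 (WBGene00016250, chromosome III, 8443910 to 8446909, minus strand) had no thresholded summit, the nearest to its start being 29106 bp away. Its highest pooled signal was 26.4 (rank 5863), 255 bp upstream at 8447164. The matching regions had signals of 16.08 in replicate 1 (rank 8161) and 9.42 in replicate 2 (rank 6702). In replicate 1, 34.9% of summits had as high a signal, and in replicate 2, 25.4%. The DNA upstream is shared: rpn-3, a gene of the proteasome regulatory particle, starts 444 bp away in the opposite direction, and its start was the nearer, at 189 bp from the summit. Inside the gene, pooled signals were 23.8 at 284 bp and 20.1 at 2226 bp from the start, both in coding exons, and the first had no region in replicate 2.

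Of the BiP genes of the endoplasmic reticulum, hsp-3 had a thresholded summit and hsp-4 did not. At hsp-3 (WBGene00002007, chromosome X, 6089028 to 6092124, minus strand) the summit at 6092202 stood 78 bp upstream of the start, the closest to a start of the 5. It was also near the threshold, with a pooled signal of 57.1 (rank 1711 of 1739 passing). The signals were 44.2 in replicate 1 (rank 1653) and 14.9 in replicate 2 (rank 2377), so it stood below the highest 1739 of replicate 2. Its 201 bp window was 59.2% G and C, which 0.863% of thresholded summits reached, where the median was 35.8%. Weaker summits ran upstream, at 23.1 (286 bp), 25.8 (1083 bp) and 22.2 (1380 bp), the last pair being nearest to the start of C15H9.5, and 2 more stood inside the gene at 15.2 and 19.5.

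At hsp-4 (WBGene00002008, chromosome II, 7350112 to 7352645, minus strand) both pooled summits were low. The higher lay in the 5′ UTR, 31 bp downstream of the start, with a pooled signal of 19.1 (rank 10267). Both replicates placed a summit within 4 bp of each other there, with signals of 9.79 in replicate 1 (rank 19268) and 6.39 in replicate 2 (rank 15706). Their −log10 q values were low, at 0.0840 and 0.204. The other lay 1426 bp upstream in a coding exon of haf-2, an ABC transporter gene, with signals of 14.5 pooled, 10.8 in replicate 1 and 5.41 in replicate 2. The start of hsp-4 was 317594 bp from the nearest thresholded summit, the longest such distance of the 7 genes. By the highest pooled signal in the window, 36.0% of protein-coding genes stood as high as hsp-4 and 7.43% as high as hsp-3.

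The mitochondrial pair also stood apart from each other. At hsp-60 (WBGene00002025, chromosome III, 1619742 to 1625803, plus strand) a thresholded summit at 1619110 lay 632 bp upstream, between hsp-60 and the divergent gene Y22D7AL.10, whose start was the nearer at 181 bp. The pooled signal was 70.9 (rank 1226), with 64.7 in replicate 1 (rank 920) and 8.90 in replicate 2 (rank 7671). Replicate 1 thus ranked it above any other promoter summit of the 7 genes, and replicate 2 ranked it far outside its highest 1739. Of all thresholded summits, 1.67% had a replicate 2 rank as far down as this, and 1.96% a ratio of replicate signals as high as its 7.27. The replicates still placed their summits only 25 bp apart, close to the median of 24 bp. The starts of the 2 genes are 813 bp apart, and the hsp-60 start lies 39405 bp from the summit with the highest signal of the whole list.

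Other pooled summits at hsp-60 were low, at 15.9 in an intron of Y22D7AL.10 and at 13.2, 13.4 and 13.9 in its own introns. At hsp-6 (WBGene00002010, chromosome V, 4824124 to 4826760, minus strand) there was a single pooled summit, in a coding exon 243 bp downstream of the start. Its signal was 13.9 (rank 17859), with a −log10 q of 0.0750 where the thresholded summits had 3.76. Replicate 1 had a region there with a signal of 13.9 (rank 10471) and replicate 2 had none, its only summit in the window being at 1977 bp upstream with a signal of 5.17 (rank 22746). A signal as high as that of hsp-6 was found at 51.3% of protein-coding genes in the pooled list, at 36.5% in replicate 1 and at 60% in replicate 2. In the promoter window, where the pooled summit lay, 30.6% of genes had a pooled signal as high.

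The regulator gene hsf-1 (WBGene00002004, chromosome I, 11953507 to 11963085, minus strand) had the highest signal of the 7 genes and the only 2 thresholded summits of 1 gene, both far from its start. The first, at 11954730, lay in an intron 8355 bp downstream of the start, with a pooled signal of 90.4 (rank 862). The signals were 78.5 in replicate 1 (rank 706) and 14.2 in replicate 2 (rank 2630), with summits 6 bp apart. The ratio of 5.53 was reached by 5.02% of thresholded summits, so replicate 1 weighed more here than usual. The second, at 11953782 in the 3′ UTR and 9303 bp downstream, had signals of 63.4 pooled (rank 1454), 48.2 in replicate 1 (rank 1435) and 16.6 in replicate 2 (rank 1925). Both were nearer to the start of R06C1.6, at 7729 and 6781 bp, than to that of hsf-1.

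In the promoter window of hsf-1 there was no pooled summit, alone among the 7 genes. The nearest upstream signals were 14.1 at 1321 bp and 39.4 at 1855 bp (rank 3019), the latter with a −log10 q of 3.30 and summits close by of 27.3 in replicate 1 (rank 3411) and 11.2 in replicate 2 (rank 4414). An overlapping region of replicate 1 with a higher signal, 37.9, had its summit 286 bp away and outside the window, and the matching rule used that region for the ratio of replicates. That summit was the highest of the 7 genes that did not pass the threshold, and hsp-3 at 57.1 was the lowest that did. A further summit of 45.6 (rank 2395) lay 136 bp beyond the upstream edge of the hsf-1 window. A summit of 15.5 in a coding exon completed the 5 pooled summits of the gene.

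By the share of genes with as high a signal, the pooled order was hsf-1 (3.59%), hsp-60 (5.22%), hsp-1 (6.09%), hsp-3 (7.43%), hsp-110 (23.6%), hsp-4 (36.0%) and hsp-6 (51.3%). In replicate 1 the first 4 kept that order, at 2.96%, 3.89%, 4.75% and 7.07%, followed by hsp-110 (26.9%), hsp-6 (36.5%) and hsp-4 (48.7%). In replicate 2 it was hsp-1 (7.30%), hsf-1 (8.24%), hsp-3 (10.3%), hsp-110 (24.7%), hsp-60 (28%), hsp-4 (47.9%) and hsp-6 (60%). The place of hsp-110 thus moved little between replicates, but through different summits in its coding exons. The highest stood 291 bp from the start in replicate 1 (17.7) and 802 bp in replicate 2 (9.52). The highest summits of hsp-4, hsp-6 and hsf-1 also differed between replicates, so the shares compare windows and not single summits. The share of hsp-60 moved most, and that of hsp-6 nearly as far. With 1 value per replicate, neighbours in these orders cannot be told apart, and the other 5 genes stood above hsp-4 and hsp-6 in both replicates.

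**Figure D2:**
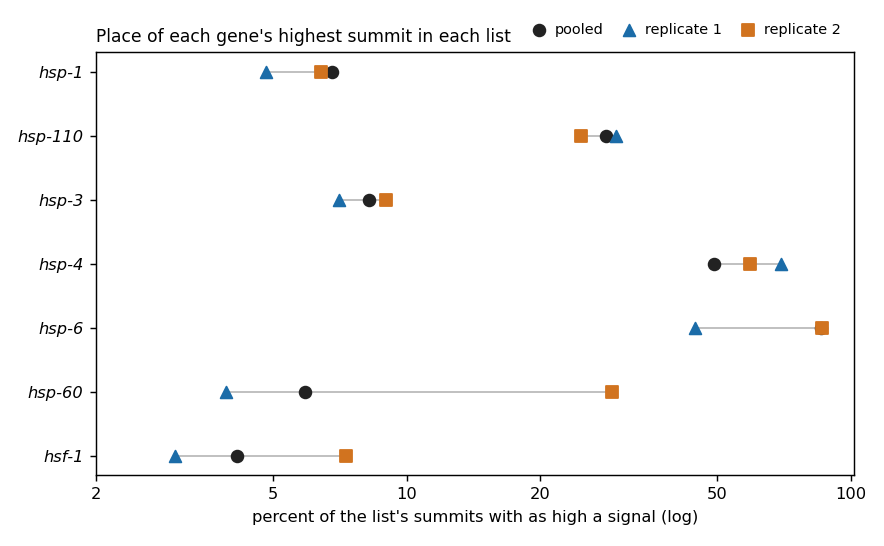
Percent of the summits of a list with a signal at least as high as the highest in each gene window (log axis, lower is stronger), for the pooled list and for each replicate. The marks of hsp-60 spread from 3.93% in replicate 1 to 29.0% in replicate 2, while those of hsp-1 lie between 4.82% and 6.79%.

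Both replicates had an overlapping region at 18 of the 27 pooled summits. With the overlapping region of highest signal taken in each replicate, signals were higher in replicate 1 at all 18. The ratio of replicate 1 to replicate 2 ran from 1.14, in a coding exon of hsp-1, to 7.27 at hsp-60, with a median of 2.21. The ratio of 1.14 rests on that matching. It set 16.8 in replicate 1, from a summit 308 bp away, against 14.7 in replicate 2. A nearer replicate 1 region, which also overlapped this pooled region, had a signal of 11.2, below that of replicate 2. At the 5 thresholded summits it was 2.90 and 5.53 at hsf-1, 2.97 at hsp-3, 3.15 at hsp-1 and 7.27 at hsp-60. Their median of 3.15 stood beside 2.76 (quartiles 2.21 and 3.54) over 1733 thresholded summits of the whole list, so hsp-60 and the intron of hsf-1 lay above the upper quartile and the other 3 within the quartiles. At the 13 of 22 weaker summits with regions in both replicates the median was 1.84, beside 1.97 over 9927 of 19064 weaker summits. Since the scale is not stated, only the place of a ratio among those of other summits is described. Neighbouring summits can share a replicate region, as the summits 78 and 286 bp upstream of hsp-3 did.

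**Figure D3:**
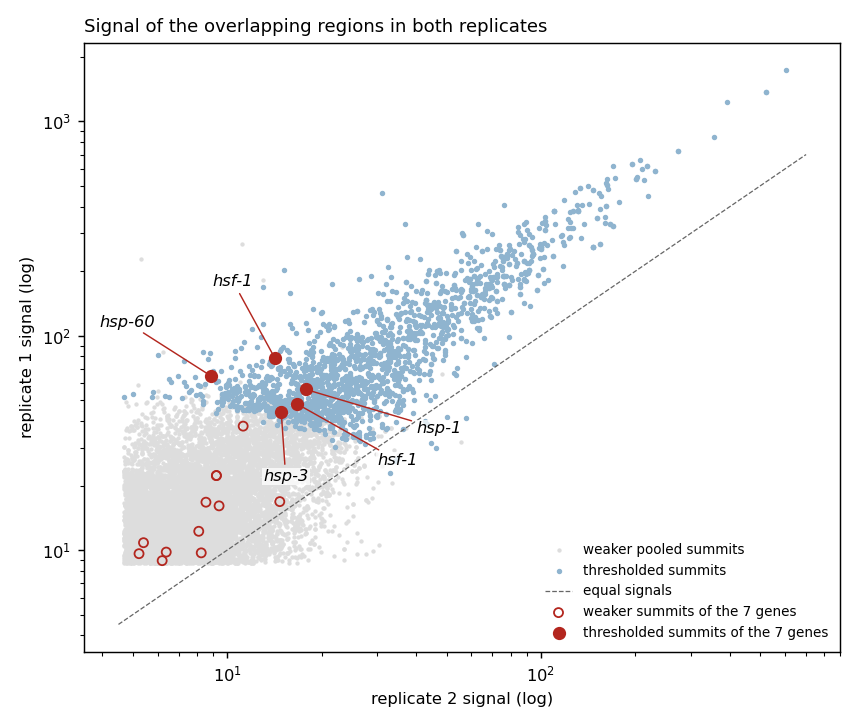
Signal in replicate 1 against replicate 2 (both log axes) of pooled summits with an overlapping region in each, with those of the 7 genes in red; the dashed line marks equal signals. With the overlapping region of highest signal taken in each replicate, all red points lie above the line. The hsp-60 summit and the higher hsf-1 summit lie to the left of most thresholded summits of like replicate 1 signal.

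The 6-letter motif ATCGAT, which is its own reverse complement, lay within 100 bp of 76.1% of all thresholded summits and 26.1% of the weaker ones, and in 17.4% of windows 1000 bp to either side of thresholded summits. Around the summits of the 7 genes it was found at 5 of 27, or 18.5%, at 1 of the 5 thresholded ones, and in 5 of 54 windows 1000 bp to either side. That 1 was the intron summit of hsf-1, with 3 sites. The others were the upstream summit of hsf-1 with a signal of 39.4, 1 coding summit each of hsp-1 and hsp-110, and the intron summit of Y22D7AL.10. The 3 thresholded promoter summits, at hsp-1, hsp-3 and hsp-60, held none, where 454 of 660 thresholded summits in promoter windows of protein-coding genes (68.8%) held at least 1. The printed sequences show this for the whole window at hsp-1 and hsp-60 and for the upstream part of it at hsp-3. The absence says only that these letters are not in the window.

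The motif was not missing from the promoters of hsp-1 and hsp-3 as a whole. In the whole promoter window of 1501 bp, ATCGAT was present in hsp-1, hsp-110, hsp-3, hsp-4 and hsp-6, beside 40.9% of protein-coding genes. It was not found in those of hsp-60 and hsf-1. The genes with ATCGAT in the promoter and those with a thresholded promoter summit were therefore not the same, since hsp-60 had the summit without the letters and hsp-110, hsp-4 and hsp-6 the letters without the summit.

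Sites of other factors were sought on both strands, as letters only. An NK-2 site (TCAAGTG or TTAAGTG) was centred 9 bp from the hsp-1 summit and another lay near the summit in clec-196, which made 2 of 27, beside 2.82% of thresholded and 4.39% of weaker summits. TGACGTG, the core bound by XBP-1 in the unfolded protein response, was centred 51 bp from the hsp-3 summit, on the side away from the gene, and was found at 1 of 27, beside 2.88% and 1.94%. A heat shock element of 3 alternating GAA and TTC units, each pair spaced by NN, was centred 59 bp from the hsp-60 summit and 24 bp from the hsp-110 summit, beside 1.73% and 1.25%. The shorter form with 2 units (GAANNTTC or TTCNNGAA) is part of the longer one and was found at 11 of 27, beside 26.0% and 22.5%, so it hardly sets summits apart.

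In promoter windows the longer heat shock element was present in hsp-1, hsp-110, hsp-6 and hsp-60, which is 4 of 7 beside 9.52% of protein-coding genes, and TGACGTG in hsp-110, hsp-3 and hsp-4, which is 3 of 7 beside 11.4%. The NK-2 letters were in 2 of 7, hsp-1 and hsf-1, beside 28.8%, and the shorter heat shock element in 6 of 7, beside 86.9%. The promoters of hsp-4, with TGACGTG, and of hsp-6, with the longer heat shock element, held such letters without a thresholded summit.

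Genes of the same pathways were counted in the same way. Of 73 other chaperone and stress regulator genes matched to the annotation, 8 (11%) had a thresholded summit in the same kind of window. Among all protein-coding genes the share was 7.56%. A pooled summit was found at 57 of the 73, beside 56.0% (11189 of 19973) of all protein-coding genes. These lists were also chosen with earlier results of these data known, and some of their genes share a summit. Nothing is therefore read from these shares. The median of the highest pooled signal was 57.1 for the 7 genes, 22.4 for these genes and 14.2 for all protein-coding genes. Since the 7 genes were chosen by their peaks, the first of these values is set by that choice.

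By compartment the lists are short, and each count below is to be read beside the same 7.56% of all protein-coding genes. The endoplasmic reticulum list had 4 of 15 genes with a thresholded summit, and 2 genes with one in the promoter window. The 4 were dnj-20 (118), a J-domain partner of BiP, the stress sensor ire-1 (71.5), the calnexin gene cnx-1 (69.6) and 1 more. The highest dnj-20 summit lay in its 3′ UTR, nearer to the start of another gene, and that of ire-1 lay 1481 bp upstream. The mitochondrial list had 1 of 10, Y22D7AL.10, through the same summit as hsp-60. The cytosolic chaperonin list had 2 of 8, cct-3 (148) in an intron and cct-1 (67.7), whose summit was nearer to another gene's start. HSP90 with its cochaperones had 1 of 14, dnj-12 (59.7). There was none among 5 other HSP70 genes, which include the heat-inducible hsp-70, none among 16 small heat shock genes, 8 of which had no pooled summit either, and none among 5 regulators of HSF-1 activity. The small heat shock genes lie partly in clusters, so that neighbouring windows share summits. The HSP90 gene, listed as hsp-90 in the annotation and looked up after the values were seen, had 3 pooled summits with a highest signal of 34.0 (rank 3809).

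**Figure D4:**
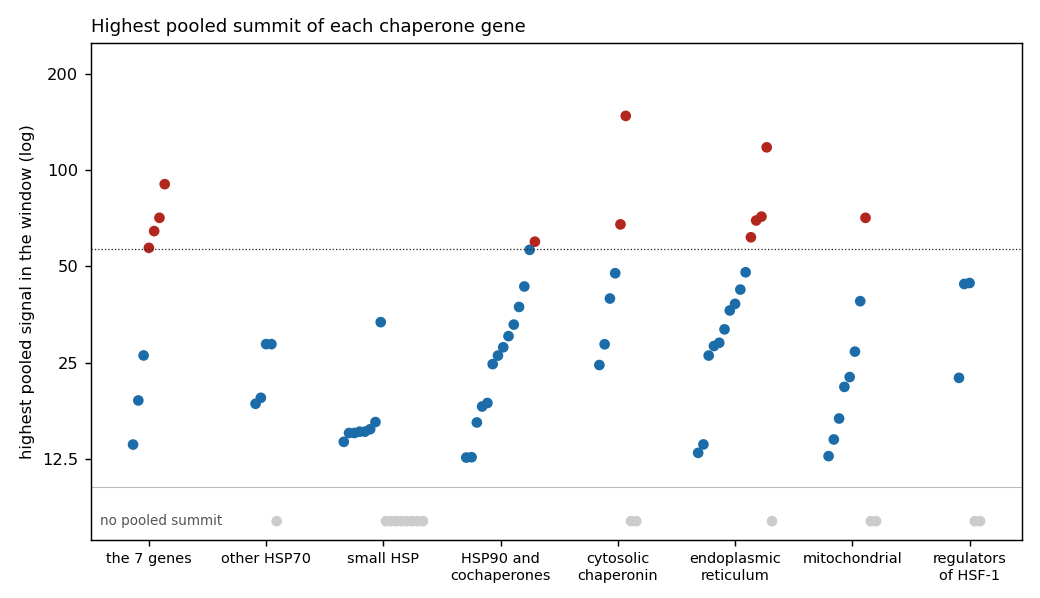
Highest pooled signal (log axis) in the window of each gene of the 7 and of each chaperone list, each point a gene; red points have a thresholded summit, the dotted line is the lowest thresholded signal and grey points below had no pooled summit. Small heat shock genes, other HSP70 genes and regulators of HSF-1 all lie below the line.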

How the data were processed

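ChIP-seq peak lists of eGFP-CEH-28 from 2 replicates of whole L4 larvae were analysed. Regions were deposited for each replicate and for both pooled, and as an IDR-thresholded list. The signal of each region is as deposited by the authors, on a scale that is not stated, and was used to rank summits within a list. The −log10 q values were also deposited by the authors, and 2882 pooled summits shared the maximum of 3.76. Which aligner and which peak caller made the lists is not given in the sources used here. Depth is unknown, since the lists hold no counts. The 4 ce11 lists were used, and those on ce10 were not used here, because no coordinates were converted.

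Gene windows came from Ensembl release 115 (WBcel235). A pooled region was matched to the replicate region of highest signal overlapping it by at least 1 bp. The 7 genes and the gene lists were chosen with earlier results of these data known, so no test was run and counts are set beside the share of all protein-coding genes or summits. Named were the 7 genes, genes that held one of their summits or had a start nearer to it, and up to 3 genes per list with the highest thresholded signal. The genes hsp-70 and hsp-90 were named besides these. Of the list symbols, hsp-16.11, hsp-16.49, daf-21, hsp-10 and hsf-2 were not matched, and 2 small heat shock symbols each name 2 loci. Motifs were searched in the RefSeq genome of WBcel235. Placement of summits in windows was tested on simulated data. Python 3.11.15, numpy 2.4.6, pandas 2.3.3 and matplotlib 3.10.9 were used. Alternatives covered the gene window, the signal threshold, each replicate alone, the matching rule and the motif window.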

Additional observations from a re-analysis of the deposited data

How the results depend on the processing

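Of the 7 genes, 4 had a thresholded summit, and 4 also with 5000 bp upstream, with 2000 bp past the gene end, or with any overlap of the region, and 3 in the promoter window. With summits at or above the median thresholded signal only 1 gene (hsf-1) remained. When each summit was given to the nearest protein-coding start, an alternative chosen after seeing the data, 2 (hsp-1 and hsp-3) remained, because the summits of hsp-60 and hsf-1 were nearer to other starts. With 1 replicate left out, the count ran from 1 (replicate 2 alone, hsp-1) to 4 (replicate 1 alone), where hsf-1 (rank 1925) and hsp-3 (rank 2377) stood close beyond the highest 1739 of replicate 2 and hsp-60 (rank 7671) far beyond. The count with a pooled summit was 7, or 6 in the promoter window. The median replicate ratio of 2.21 became 2.39 with the nearest summit within 100 bp in each replicate (10 summits). The share of summits with ATCGAT, 18.5%, was 11.1% within 50 bp and 29.6% within 200 bp. No paired analysis was possible because only 1 group was sampled. Unknown depth, 2 replicates and a shared control limit every value, and 2 values give only a poor estimate of the spread between samples.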
